A study of Mus musculus with 4 samples.

Results

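The genes described here are 34 genes of cartilage matrix and of the chondrocyte, of 31053 genes counted in each library. They were taken by symbol from a fixed list, and all 34 symbols were found in the gene lists of the libraries. Of these, 10 genes (Col2a1, Col9a1, Col9a2, Msmp, Ucma, Cnmd, Prkg2, Tnni2, Chst11 and Meltf) had been the 10 largest rises in an earlier comparison of the same stromal cells. These 10 were thus chosen by their summed CPM difference between genotypes, so that difference is given as a description with no test. Cells of mouse bone and marrow were sequenced as single cells in droplets, in 4 libraries, 1 per group, and the members are described in both stromal libraries. The KO library came from Vav1-Cre/+STAT5abfl/fl mice and the control library from Vav1-Cre/+STAT5ab+/+ mice, so that both genotypes carry the Cre transgene and the control carries intact Stat5a and Stat5b. The Vav1 promoter drives Cre in blood cells, so the stromal cells are not the intended cells of the deletion. The stromal cells were freed with collagenase from crushed femurs and tibias of mice 6 to 8 weeks old, and were sorted as negative for CD45 and CD71, negative or low for Ter119, and positive for Sca-1 and CD140a. The labels do not say how many mice went into a stromal library. With 1 library per group no difference could be tested, and every interval given is a 95% interval that covers counting error only.

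Cartilage is built by chondrocytes, which surround themselves with a fibrillar network of collagens II, IX and XI and a gel of aggrecan bound to hyaluronan. SOX9, acting with SOX5 and SOX6, drives the genes of this matrix. In the growth plate the secreted signal IHH and the receptor PTH1R form a loop that paces the maturation of chondrocytes, and collagen X marks the hypertrophic stage. In a marrow preparation from crushed bone, such cells can come from the growth plate and the joint surface as well as from stroma.

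The KO library held 425 barcodes and 1270763 unique molecular identifiers (UMIs), and the control library held 672 barcodes and 1874023 UMIs. After filters on genes and mitochondrial UMIs and removal of scored doublets, 384 KO cells with a median of 2428 UMIs and 609 control cells with a median of 2633 UMIs were kept. Stat5a stood at 55.2 counts per 1000000 UMIs (CPM) in KO and 42.6 in control, and Stat5b at 46.1 and 51.0 CPM. The intervals of the libraries overlapped for both genes, so these stromal counts do not check the genotype labels.

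The stromal libraries share 42 barcodes, and many of these carry the members. In every shared pair one copy was far larger than the other, by 11.2-fold to 16.1-fold with a median of 12.9-fold. The copy in KO was the larger in 31 pairs and the copy in control in 11. Of the 42 pairs, 26 were rich in cartilage transcripts in both libraries, and 23 of these 26 were larger in KO. Within those 26 pairs, the 7 genes Col2a1, Col9a1, Col9a2, Col9a3, Col11a1, Col11a2 and Acan made up a median of 6.75% of UMIs in the KO copy and 6.82% in the control copy. The summed calls, cell counts and Col2a1 are therefore given with all kept cells and again without the barcodes that hold more UMIs in the other stromal library, called larger elsewhere below. That second set holds 378 KO and 579 control cells, and it removes 0.397% of the kept UMIs in KO and 1.51% in control.

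**Figure D1:**
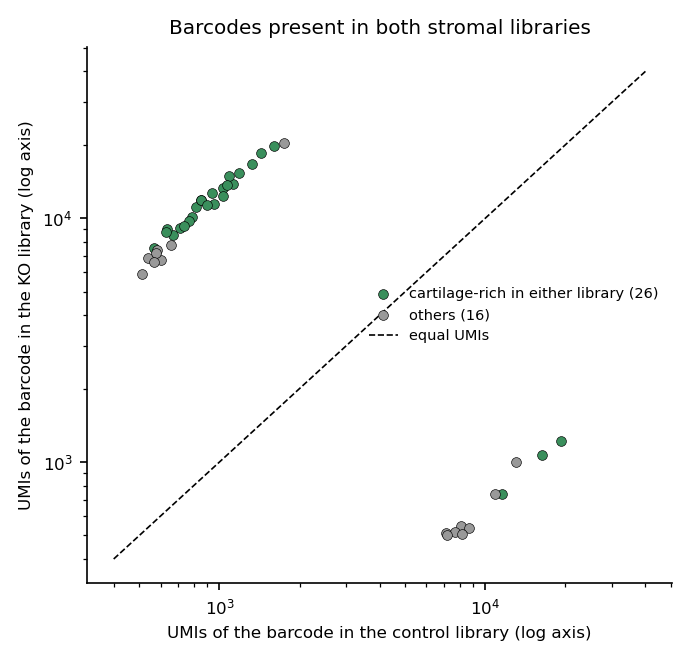
UMIs of each of the 42 barcodes present in both stromal libraries, in the control library (x axis, log) and the KO library (y axis, log); the dashed line marks equal UMIs and green points are cartilage-rich in either library. All pairs lie 11.2-fold to 16.1-fold off the line, and 23 of the 26 cartilage-rich pairs lie on the KO side.

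The promoters of the members were searched for letters that SOX proteins are known to bind. RefSeq promoters of 300 bases (250 before to 50 after a gene start, build GRCm38.p6) were found for 28 of the 34 genes, 39 promoters in all. The words ACAAAG and ACAATG were searched on both strands. At least 1 match was present in 10 of the 39 promoters (25.6%), beside 9394 of 32851 promoters of all genes (28.6%), so the share in the members was near the background. The matches belonged to 5 genes, Col10a1, Epyc, Pth1r, Sox5 and Sox6, and 6 of the 10 promoters were those of Sox6 and Sox5. Col2a1, Col9a3, Comp, Sox9, Prkg2 and Tnni2 were not searched. The promoters of Col9a1, Col9a2, Matn1, Matn3 and Matn4 held no match in this window. Members that show the range are Col9a2 (chr4:121039316-121039615, plus strand) and Matn3 (chr12:8947679-8947978, plus strand), whose UMIs lie nearly all in chondrocyte-like cells, one promoter of Epyc (chr10:97646853-97647152, plus strand) and one of Sox6 (chr7:115995037-115995336, minus strand), whose UMIs lie mostly in other cells. Capitals mark the matches to either word or its reverse complement.
Col9a2: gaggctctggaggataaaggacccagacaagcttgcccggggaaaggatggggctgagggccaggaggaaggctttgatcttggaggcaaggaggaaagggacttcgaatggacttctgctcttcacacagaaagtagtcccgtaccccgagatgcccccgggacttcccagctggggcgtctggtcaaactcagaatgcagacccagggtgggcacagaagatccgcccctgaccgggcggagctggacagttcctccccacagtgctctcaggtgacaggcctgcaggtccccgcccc
Matn3: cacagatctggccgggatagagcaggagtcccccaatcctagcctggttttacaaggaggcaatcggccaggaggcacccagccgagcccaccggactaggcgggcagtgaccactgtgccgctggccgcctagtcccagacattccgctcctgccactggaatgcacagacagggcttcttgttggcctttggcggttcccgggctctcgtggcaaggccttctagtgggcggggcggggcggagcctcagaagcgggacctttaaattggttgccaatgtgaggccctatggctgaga
Epyc: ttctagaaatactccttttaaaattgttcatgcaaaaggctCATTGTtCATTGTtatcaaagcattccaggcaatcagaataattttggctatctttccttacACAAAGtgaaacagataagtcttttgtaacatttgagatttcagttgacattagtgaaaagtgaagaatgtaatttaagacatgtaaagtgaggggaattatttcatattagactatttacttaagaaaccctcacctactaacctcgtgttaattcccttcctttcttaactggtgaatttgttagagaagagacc
Sox6: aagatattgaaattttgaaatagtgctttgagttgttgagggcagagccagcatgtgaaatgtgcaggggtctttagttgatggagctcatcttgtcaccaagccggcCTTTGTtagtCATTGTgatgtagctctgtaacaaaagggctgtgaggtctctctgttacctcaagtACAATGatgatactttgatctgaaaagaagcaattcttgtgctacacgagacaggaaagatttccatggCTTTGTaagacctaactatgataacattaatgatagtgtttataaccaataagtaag

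Summed over each library, most members were higher in KO, the fibril collagens and aggrecan among them. Every member had at least 20 UMIs over both libraries with all kept cells. Of the 34, 25 were at least 2-fold higher in KO and 1, Col10a1, was at least 2-fold lower, counting log2 ratios with a pseudocount of 10 CPM. By the same rule, 1.34% of 10180 genes were higher and 0.619% were lower. The median log2 ratio was 1.77 over the members and -0.05 over all genes. Without the barcodes larger elsewhere, 33 members reached 20 UMIs, and 25 were higher and 1 lower, beside 1.43% and 0.669% of 10168 genes. Their median log2 ratio was then 1.93. When each cell counted equally (the mean of single-cell CPM), 0 of 34 members were 2-fold higher over all kept cells, beside 0.354% of genes. Without the barcodes larger elsewhere, a setting added after the data were seen, 18 of 33 were, beside 0.728%. The count of members called thus depended on how cells were weighted and, with equal weights, on the barcodes larger elsewhere.

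Col2a1 (ENSMUSG00000022483, GRCm38 chr15:97975602-98004695, minus strand) encodes the main fibrillar collagen of cartilage. It stood at 11050 CPM in KO and 2312 CPM in control with all kept cells, a ratio of 4.78 (4.61 to 4.95). Without the barcodes larger elsewhere the levels were 10946 and 1826 CPM, a ratio of 5.99 (5.77 to 6.23). Removing those barcodes thus moved the control level far more than the KO level. The values that follow are from that second set of cells unless all kept cells are named.

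The other fibril collagens were also higher in KO. Col11a1 stood at 1931 CPM in KO and 464 CPM in control, and Col11a2 at 1497 and 350.2 CPM; both encode chains of collagen XI, which nucleates the fibril. Col27a1, a minor fibrillar collagen of cartilage, stood at 648 and 167 CPM. The 3 chains of collagen IX, which decorates the fibril surface, were higher in KO by 4.98-fold for Col9a3, 5.52-fold for Col9a1 and 5.92-fold for Col9a2. Their levels lay between 1115 and 1390 CPM in KO and between 202 and 243 CPM in control. Acan, the core protein of aggrecan, stood at 1396 CPM in KO and 289 CPM in control, and Hapln1, the link protein that ties it to hyaluronan, at 963 and 201 CPM. These are levels within a gene; since reads are counted at the 3′ end, they are not scaled by length and genes are not ranked against each other here.

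The adaptor proteins that join the fibrils to other matrix split into 2 kinds. Matn3, which encodes matrilin-3, stood at 389 CPM in KO and 87.6 CPM in control, and Matn1 had 31 UMIs in KO and 3 in control. Comp, Chad and Matn4 are also made outside cartilage and their ratios were smaller. Comp stood at 5094 and 2286 CPM (ratio 2.23), Chad at 3385 and 1439 CPM (2.35), and Matn4 at 37.2 and 27.3 CPM with an interval of the ratio from 0.887 to 2.09. Among small leucine-rich repeat proteins, Epyc (epiphycan of the growth plate) stood at 148 and 37.0 CPM and Prelp at 1325 and 864 CPM. Fmod, fibromodulin, was slightly lower in KO, at 2555 CPM beside 2789 CPM (ratio 0.916, 0.875 to 0.958).

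Among the secreted chondrocyte proteins, Cnmd and Ucma had wide ratios. Both are among the 10 genes chosen by this difference, as are Prkg2, Chst11, Meltf and Tnni2 below. Cnmd, chondromodulin, an inhibitor of vessel growth, stood at 929.7 CPM in KO and 117 CPM in control (ratio 7.94, 6.84 to 9.25). Ucma, a cartilage matrix protein rich in modified glutamate, stood at 259 and 21.6 CPM (12.0, 8.53 to 17.2). Cytl1 stood at 2751 and 1012 CPM (2.72, 2.57 to 2.88). The signalling genes of the growth plate followed: Prkg2, a cGMP-dependent kinase, at 203 and 19.9 CPM, Pth1r at 337 and 172 CPM, and Fgfr3, a receptor that restrains growth-plate proliferation, at 76.0 and 39.2 CPM. Ihh was sparse, with 16 UMIs in KO and 3 in control. Of the remaining genes, Chst11, a chondroitin sulfotransferase, stood at 289 and 45.5 CPM, Meltf at 212 and 36.4 CPM, Tnni2, a troponin subunit, at 74.4 and 3.98 CPM, and Car12, a carbonic anhydrase, at 44.6 and 4.55 CPM. Tnni2 rested on 7 UMIs in control and Car12 on 8, so their ratios have wide intervals (8.71 to 47.8 and 4.64 to 23.9).

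Sox9 was the transcription factor with the widest ratio, 868 CPM in KO and 220.04 CPM in control (3.94, 3.51 to 4.44). Sox5 stood at 96.7 and 39.2 CPM (2.46, 1.82 to 3.37) and Sox6 at 215 and 117 CPM (1.84, 1.53 to 2.22). Wwp2, a ubiquitin ligase gene, stood at 162 and 83.0 CPM (1.95, 1.57 to 2.43). Sox5 and Sox6 overlap antisense genes that were also counted, and the strand rule of the counting is not given in the sources used here.

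**Figure D2:**
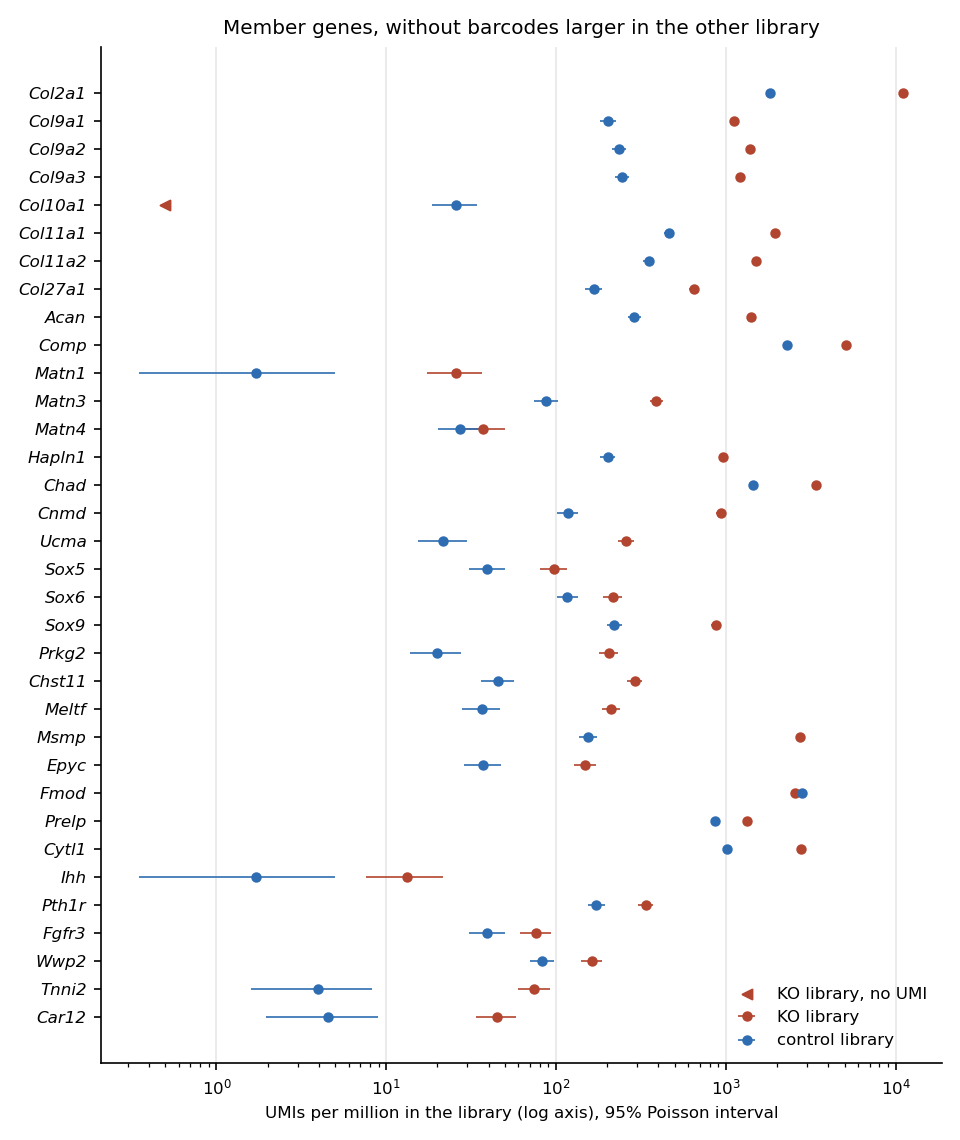
Level of each of the 34 members in CPM (log x axis) in the KO library (red) and the control library (blue), without barcodes larger elsewhere; bars are 95% Poisson intervals and a triangle marks a gene with no UMI. All members but Fmod and Col10a1 lie higher in KO, and Col2a1 lies at 10946 CPM in KO and 1826 CPM in control.

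The number of cartilage cells was counted next, apart from the levels within them. A cell was called cartilage-rich when the 7 collagen and Acan genes named above made up at least 1% of its UMIs, with at least 3 UMIs from at least 2 of them. Of all kept cells, 34 of 384 in KO (8.85%, 6.21% to 12.2%, exact Clopper-Pearson) and 37 of 609 in control (6.08%, 4.31% to 8.28%) met this rule, and the intervals overlapped. Of the 37 control cells, 23 were barcodes larger elsewhere, beside 3 of the 34 KO cells. Without them 31 of 378 KO cells (8.20%, 5.64% to 11.4%) and 14 of 579 control cells (2.42%, 1.33% to 4.02%) remained, and the intervals did not overlap. At a rule of 5% of UMIs, a threshold added after the data were seen, the counts were 17 in KO and 4 in control. At 0.5% they were 37 and 23, and at 2% they were 24 and 8. With all kept cells the counts in KO and control were 20 and 18 at 5%, 41 and 46 at 0.5%, and 27 and 30 at 2%. Of all kept cells, 14 in KO and 16 in control lay between 0.5% and 2%, so the class is a range and not a type.

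At the 1% rule the cartilage-rich cells also held more UMIs in KO. Their median was 9803.5 UMIs in KO and 1066 UMIs in control with all kept cells, and 10139 and 4589 UMIs without the barcodes larger elsewhere. At the 5% rule the order turned in that second set, with medians of 12702 UMIs in KO and 13963 UMIs in the 4 control cells. They held 26.4% of all UMIs in KO and 5.89% in control with all kept cells, and 26.2% and 4.75% without those barcodes. After each kept cell was thinned to 600 UMIs, 33 of 345 KO cells (9.57%) and 39 of 551 control cells (7.08%) were cartilage-rich, without 39 and 58 shallower cells. Without the barcodes larger elsewhere and without 37 and 52 shallower cells, 30 of 341 KO cells (8.80%) and 17 of 527 control cells (3.23%) were. The log2 ratio of 2.58 for Col2a1 in that set of cells is the sum of 1.76 from the share of cartilage-rich cells, 0.70 from their UMIs relative to all cells, 0.16 from the Col2a1 level within them, and -0.04 from the UMIs outside them. With all kept cells the sum of 2.26 was made of 0.54, 1.62, 0.13 and -0.03 in the same order. The split between number and size thus turned on the shared barcodes. This sum was made for Col2a1 alone, and since Col2a1 is 1 of the 7 genes of the rule, its level within the cells is partly fixed by the rule.

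**Figure D3:**
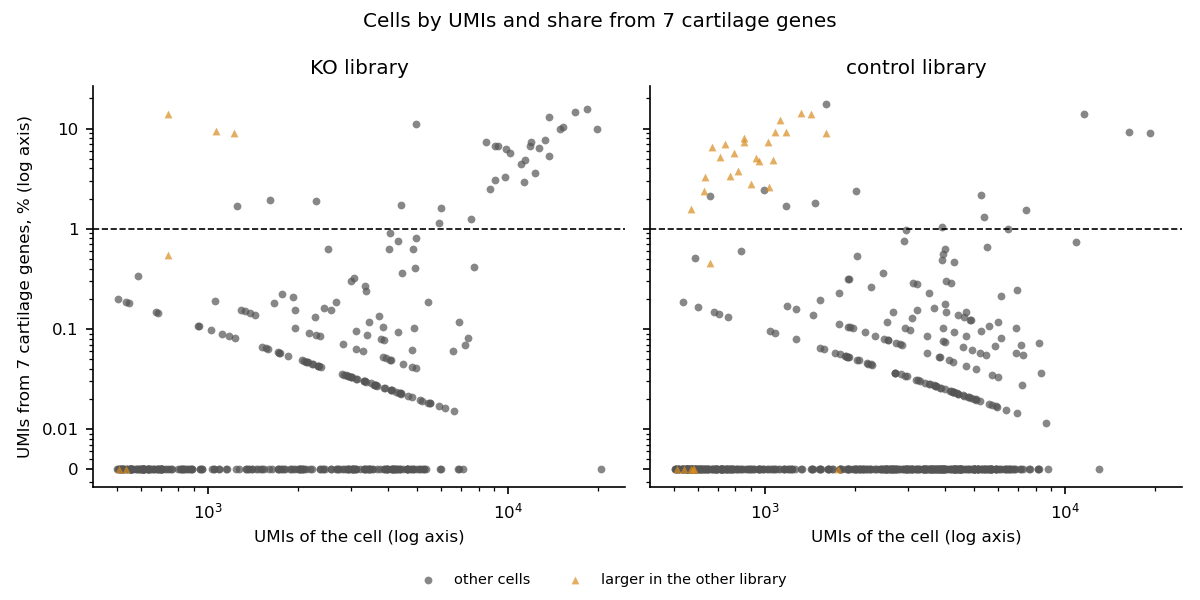
Each kept cell by its UMIs (x axis, log) and the percent of its UMIs from 7 cartilage genes (y axis, log, with 0 drawn at the bottom) in the KO (left) and control (right) libraries; the dashed line is the 1% rule and triangles are barcodes larger in the other stromal library. KO holds a group of large cells above the line, and most points above the line in control are triangles of few UMIs (23 of 37 cells).

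A cluster of chondrocyte-like cells, found with the members kept out of the clustering, also held more KO than control cells by share, but without the barcodes larger elsewhere its cells were of like size. Their median was 11460 UMIs in KO and 11243.5 UMIs in control. Its 10 leading genes held 6 members (Col9a2, Col9a3, Col2a1, Col9a1, Cnmd and Matn3) beside Mia, Fxyd2, Serpina1a and Serpina1d. The cluster held 29 KO and 28 control cells, and 25 and 6 without the barcodes larger elsewhere, so most of its control cells were such barcodes. These 25 cells are 6.61% of KO cells (4.33% to 9.61%) and the 6 cells are 1.04% of control cells (0.381% to 2.24%). The number of cells in the cluster, 57 in all, was identical at lower and higher resolution. All 25 KO cells were also cartilage-rich by the 1% rule, and 5 of the 6 control cells were. The other cartilage-rich cells lay in a cluster led by Msmp, Prg4 and Cytl1 (4 in KO, 3 in control) or elsewhere (2 in KO, 6 in control).

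Within the chondrocyte-like cluster few members differed 2-fold between libraries. Col2a1 stood at 44007 CPM in KO and 44293 CPM in control, a ratio of 0.994 (0.955 to 1.03). By cell, Col2a1 ran from 66.1 to 913 UMIs per 10000 with a median of 393 in the 25 KO cells, and from 23.8 to 939 with a median of 519 in the 6 control cells. The cells of both libraries thus covered the same range. Of 31 members with at least 20 UMIs in the cluster, 3 (Ucma, Tnni2 and Matn1) were at least 2-fold higher in KO and 0 lower, beside 12.7% and 5.28% of 2328 genes. The count of members called, 3 of 31, was near the background. The median log2 ratio was 0.16 over the members and 0.10 over all genes. Over all kept cells 0 of 32 were called in either direction, beside 8.07% and 3.09% of 2490 genes. In the cartilage-rich cells, where the 7 genes of the rule are left out, 2 of 26 members (Msmp and Tnni2) were higher and 0 lower with all kept cells, beside 6.96% and 3.76% of 2714 genes. Without the barcodes larger elsewhere 7 of 25 (Matn1, Ucma, Prkg2, Chst11, Msmp, Tnni2 and Car12) were higher and 0 lower, beside 12.2% and 5.42% of 2585 genes. The median log2 ratio was then 0.55 over the members and 0.09 over all genes. Of the genes called within these cells, Ucma, Prkg2, Chst11, Msmp and Tnni2 are among the 10 chosen by their summed difference. The counts and medians are thus descriptions only.

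Some members did shift within the cluster beyond counting error. Pth1r was the lowest, at 1085 CPM in KO and 2028 CPM in control (ratio 0.535, 0.436 to 0.659). Chad (9872 and 13775 CPM, ratio 0.717) and Matn3 (1602 and 2251 CPM, ratio 0.711) were also lower in KO. Col9a3 (0.806, 0.722 to 0.902), Acan (0.822, 0.740 to 0.915) and Hapln1 (0.838, 0.737 to 0.956) were lower by smaller ratios. Higher beyond counting error were Col11a1 (1.21), Cnmd (1.28), Comp (1.12) and Tnni2 (2.90), and the genes that follow. Ucma stood at 881 and 343 CPM (2.57, 1.67 to 4.12), Prelp at 1860 and 984 CPM (1.89, 1.46 to 2.48), Prkg2 at 833 and 447 CPM (1.86, 1.27 to 2.82), Cytl1 at 3455 and 2147 CPM (1.61), Chst11 at 1119 and 716 CPM (1.56) and Sox9 at 3129 and 2430 CPM (1.29, 1.09 to 1.53). Cell by cell these ranges overlapped. Pth1r ran from 0 to 52.5 UMIs per 10000 (median 8.80) in KO and from 1.56 to 58.8 (median 20.2) in control, and Ucma from 0.504 to 45.7 (median 6.11) and from 0.520 to 13.5 (median 3.91).

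Few cells carry the control side of these ratios, and for Tnni2 and Matn1 the KO side as well. Tnni2 was seen in 12 of the 25 KO cells, and 1 of them gave 37 of its 89 UMIs. For Matn1, 1 KO cell gave 14 of 31 UMIs. Of the 6 control cells, 3 held 70.3% of the cluster's UMIs, and 2 cells gave 44 and 68 of the 136 Pth1r UMIs. The largest control cell gave only 3 of the 136. Leaving it out therefore cannot show how far the Pth1r ratio rests on those 2 cells, and the ratio without them was not computed. Without the largest control cell, left out after the data were seen, Pth1r had a ratio of 0.390 (0.318 to 0.482), Chad 0.592, Matn3 0.568, Ucma 1.92 (1.24 to 3.11), Prelp 3.42 (2.31 to 5.29), Prkg2 2.85 (1.67 to 5.29), Chst11 2.43 (1.58 to 3.94), Sox9 1.48 (1.21 to 1.84) and Col2a1 1.04 (0.996 to 1.09). Cytl1 then had an interval that held 1 (0.963 to 1.38). The intervals of Acan (0.876 to 1.14), Comp (0.842 to 1.002) and Tnni2 (0.964 to 5.3) held 1 as well. Of 31 members, 6 (Matn1, Prkg2, Chst11, Prelp, Tnni2 and Car12) were then at least 2-fold higher and 1, Pth1r, lower, beside 19.3% and 6.17% of 2219 genes. Ucma was no longer called. Prkg2, Chst11 and Tnni2 are among the 10 genes chosen by their summed difference. The ratios of Prelp, Prkg2, Chst11 and Car12 moved by more than 1.5 times. Car12 moved the most, from 2.01 to 4.31, on 2 control UMIs, and Matn1 had 0 control UMIs left.

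**Figure D4:**
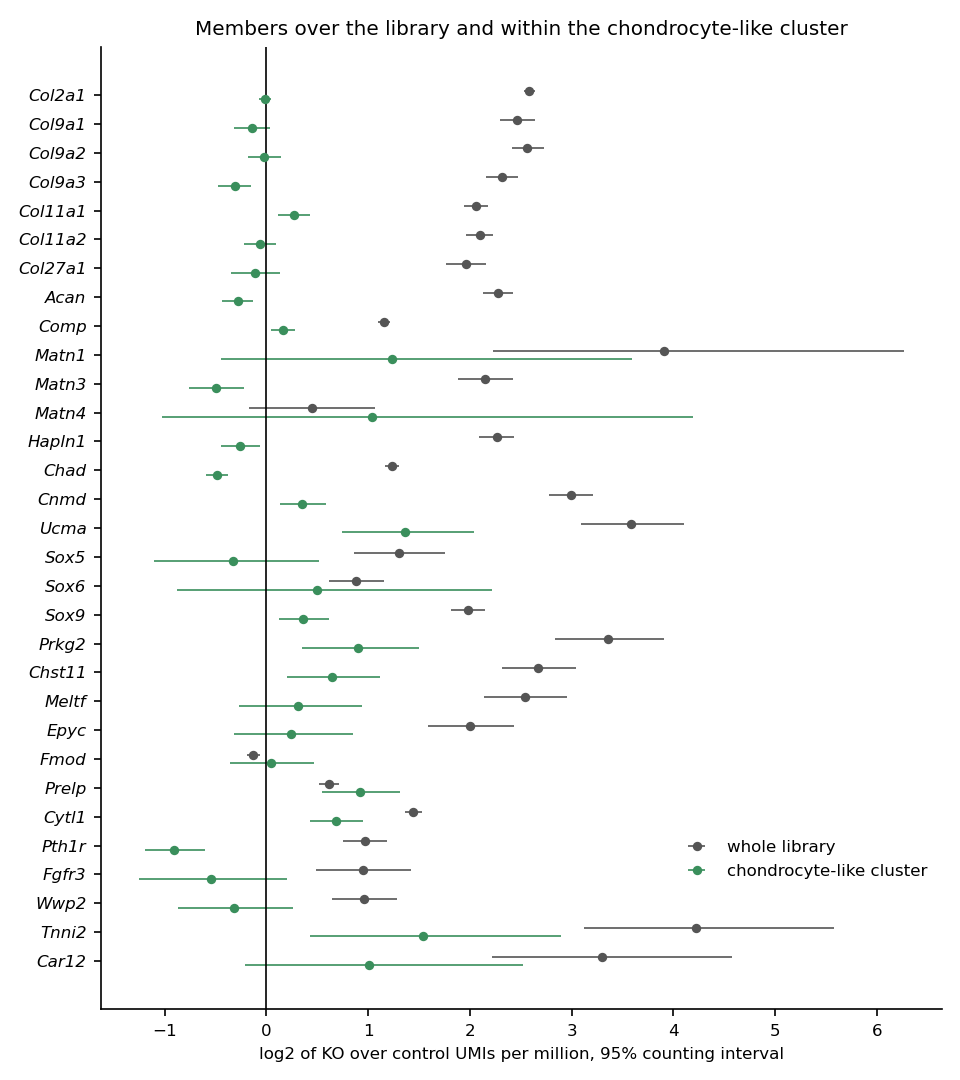
log2 ratio of KO over control CPM (x axis) for 31 members, over the whole library (grey) and within the chondrocyte-like cluster (green; 25 KO and 6 control cells), without barcodes larger elsewhere; bars are 95% counting intervals. The grey points lie above 0 except Fmod, and the green points scatter around 0, with Col2a1 at -0.01 and Pth1r lowest.

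The members did not all belong to the chondrocyte-like cells. Collagen IX, Cnmd, Matn1, Matn3, Ihh and Tnni2 did: from 93.5% to 100% of their UMIs lay in that cluster in both libraries. For Prkg2 the share was 99.6% in KO and 85.7% in control. For the collagen XI genes it was 88.8% (Col11a1) and 92.1% (Col11a2) in KO, and 48.04% and 64.4% in control, where the tendon-like and osteoblast-like clusters held 19.4% and 15.6% of Col11a1. Fmod was mostly a gene of the tendon-like or ligament-like cluster, with 72.0% of its UMIs there in KO and 85.7% in control. Prelp had 35.4% and 45.0% there, and Comp 17.2% and 36.1%. The tendon-like cluster held like shares of cells in both libraries, 59 of 378 (15.6%) and 87 of 579 (15.03%).

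Sox6 stood apart from its partners. Of its UMIs, 78.5% in KO and 86.3% in control lay in the erythroid-like cluster, and 11.9% and 2.44% in the chondrocyte-like cluster. Its level in erythroid-like cells was 2745 CPM in KO and 1386 CPM in control, where it is known as a regulator of red cell maturation. The library level of Sox6 thus says little of chondrocytes. Sox9 had 87.6% of its UMIs in the chondrocyte-like cluster in KO and 42.1% in control, where 16.5% lay in CXCL12-abundant stromal-like cells. Pth1r and Fgfr3 were also shared with CXCL12-abundant and osteoblast-like cells: in control these held 18.5% and 22.8% of Pth1r and 37.7% and 13.04% of Fgfr3.

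**Figure D5:**
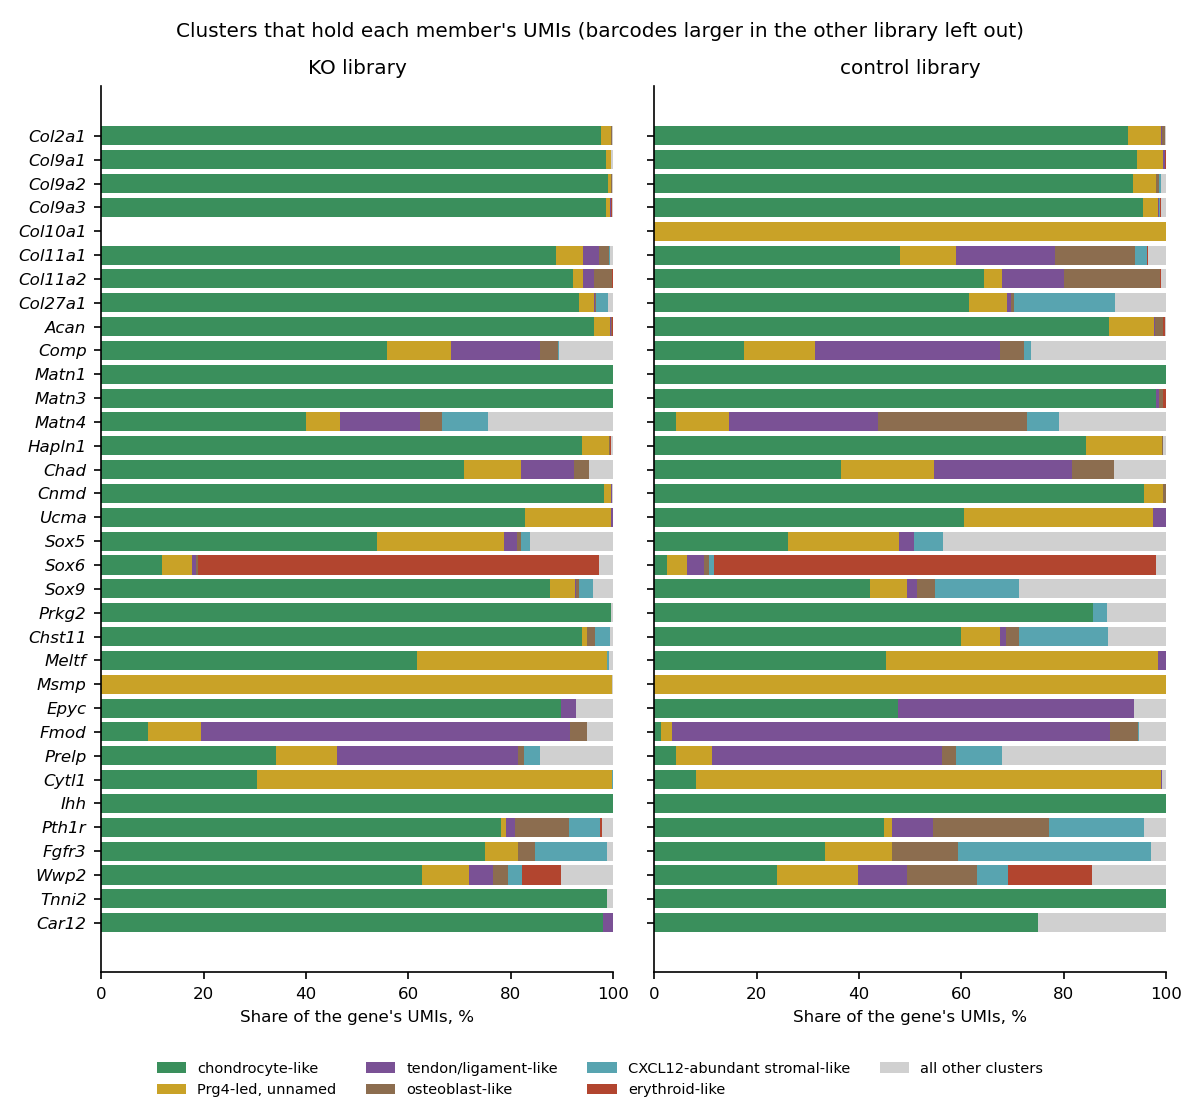
Share of each member's UMIs (x axis, percent) in each cluster of cells, in the KO (left) and control (right) libraries without barcodes larger elsewhere; colours are clusters and a blank row has no UMI. Collagen IX, Matn1, Matn3, Ihh and Tnni2 are nearly all chondrocyte-like, Fmod is mostly tendon-like, Sox6 erythroid-like, and Msmp and Cytl1 lie mostly in the cluster led by Prg4.

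The cluster led by Msmp, Prg4 and Cytl1 took no cell type name. Prg4 encodes lubricin, a lubricating protein of joint surfaces. It held 19 KO and 15 control cells without the barcodes larger elsewhere. Cytl1 had 69.3% of its UMIs there in KO and 90.9% in control, at 28109 and 26910 CPM, and Meltf 37.1% and 53.1%. Msmp had 99.8% and 100%, and 1 cell dominated its level in KO. That cell held 3065 of the 3293 Msmp UMIs in KO, 39.6% of its own 7738 UMIs. Its barcode was also present in control, with 298 Msmp UMIs of 657. The Msmp ratio was 8.27 with all kept cells (2711 and 328 CPM) and 17.6 without the barcodes larger elsewhere. With all kept cells but without the cell richest in Msmp in each library, the log2 ratio was 0.22 (-0.04 to 0.48). Without the barcodes larger elsewhere as well, Msmp stood at 190 and 52.4 CPM, a log2 ratio of 1.68 (1.32 to 2.04). Both settings were added after the data were seen. In both, 228 Msmp UMIs were left in KO, and 172 of them lay in 1 cell of 7543 UMIs. These ratios thus still rest largely on 1 KO cell, which their intervals do not cover. Only 1 Msmp UMI in KO and 0 in control lay in the chondrocyte-like cluster.

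Col10a1, the collagen of hypertrophic cartilage, was lower in KO, as Fmod was by a small ratio, and did not mark the chondrocyte-like cells. It had 0 UMIs in KO, where 3 counts would be 2.48 CPM, and 45 UMIs in control (25.6 CPM), at least 10.3-fold lower in KO by that floor taken over the library. The 45 UMIs came from 2 cells, with 40 and 5 UMIs, both in the cluster led by Prg4 and neither cartilage-rich. Neither cell had an Ihh UMI. Col10a1 overlaps Nt5dc1 on the other strand.

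Outside the chondrocyte-like cluster the excess in KO was smaller but not gone. Among 353 KO and 573 control cells, 28 members had at least 20 UMIs. Of these, 8 (Col2a1, Hapln1, Cnmd, Ucma, Sox6, Meltf, Msmp and Cytl1) were at least 2-fold higher in KO and 1, Col10a1, lower, beside 0.417% and 0.406% of 9843 genes. Col2a1, Cnmd, Ucma, Meltf and Msmp are among the 10 genes chosen by their summed difference, so this count is a description. Of the 229 Sox6 UMIs in KO there, 204 lay in erythroid-like cells. The median log2 ratio of the 28 members was 0.44, and that of all genes was -0.0035. Col2a1 stood at 332 and 142 CPM there, a ratio of 2.33, with 304 and 241 UMIs. The collagen XI genes had ratios of 1.14 and 1.21 and Pth1r of 0.984, each with an interval that held 1. These cells were set apart after the data were seen. In KO, 19 of these cells belonged to the cluster led by Prg4, and in control 15 did, shares of 5.03% and 2.59% of all cells. That cluster held 1.93% of all Col2a1 UMIs in KO and 6.57% in control, beside 97.7% and 92.5% in the chondrocyte-like cluster. Within the cluster led by Prg4, Col2a1 stood at 3106 CPM in KO and 3509 CPM in control, and Hapln1 at 731 and 865 CPM. Cnmd, Ucma, Sox6, Meltf, Msmp and Cytl1 were higher in KO there. The part of that cluster in the difference was not tested.

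Co-detection was counted within cells, without the barcodes larger elsewhere. A Col2a1 UMI was present in 79 of 378 KO cells (20.9%) and 40 of 579 control cells (6.91%). In erythroid-like cells, which should lack it, it was present in 1 of 96 and 1 of 126 cells, at median depths of 633 and 649 UMIs. After thinning to 600 UMIs the shares with a Col2a1 UMI were 12.9% and 4.74%. Cartilage-rich cells held a UMI of a median of 28 of the 34 members in KO (4 to 32) and 19 in control (2 to 30), and all other cells a median of 2 in both libraries. Depth differs between those cells, as given above, and the number of members found depends on it. Of cells with Matn1, Ihh or Tnni2 in KO, 7 of 7, 8 of 8 and 12 of 13 also had Col2a1. Col2a1 was present in 30 of the 31 cartilage-rich KO cells and in all 25 KO cells of the chondrocyte-like cluster. These counts thus show no particular pairing. Cells with UMIs of Sox5, Sox6 and Sox9 together numbered 16 in KO, of which 12 were cartilage-rich, and 7 in control, of which 4 were. Pth1r was present in 8 of 8 Ihh cells in KO and 2 of 2 in control, where it was present in 22 of 25 and 6 of 6 cells of the chondrocyte-like cluster as a whole.

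Genes that go with the cartilage-rich cells were ranked by the log2 ratio of their level there to that in all other cells, over 7230 genes and both libraries. The members fill 15 of the first 25 places and 24 of the first 100, a description only, since 7 members chose the cells. The 10 other genes at the top were Fxyd2, Mia, Ppa1, Serpina1d, Chadl, Panx3, 3110079O15Rik, Scrg1, Serpina1a and Serpina1b. Mia encodes a protein secreted by chondrocytes, Chadl is a relative of chondroadherin, and the Serpina1 genes encode alpha-1-antitrypsins, near copies whose reads the counting may split. In all kept cells the 10 were higher in KO by log2 ratios from 1.33 (Chadl) to 2.02 (Mia). This too is a description, since the 10 were picked as high in cartilage-rich cells. Those cells held 26.4% of UMIs in KO and 5.89% in control. Mia stood at 1150 CPM in KO and 276 CPM in control.

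Of a list of 50 other cartilage genes, 49 were found and 41 had at least 20 UMIs. Of these 41, 11 (Mia, Nfatc2, Scrg1, Xylt1, Trpv4, Ncmap, Mmp13, Susd5, Papss2, Csgalnact1 and Foxa3) were at least 2-fold higher in KO and 0 lower over all kept cells, beside the 1.34% and 0.619% of all genes. The median log2 ratio of the list was 0.55. The list was chosen with earlier results of these data known, so its counts and medians are descriptions only. Without the barcodes larger elsewhere 12 were higher and 0 lower, with a median of 0.58. Enzymes that make and sulfate chondroitin chains were among them: Xylt1, which starts the chain, stood at 120 and 31.9 CPM, and Papss2, which makes the sulfate donor, at 160.5 and 56.0 CPM. Chpf, at 50.2 and 59.9 CPM, and Chsy1, at 33.7 and 42.0 CPM, lengthen the chain and had intervals of the ratio that held 1. Mmp13, a collagenase of late chondrocytes and of osteoblasts, stood at 389 and 136 CPM, but 3.60% of its UMIs in KO and 0% in control were in cartilage-rich cells. Prg4 stood at 3767 and 2097 CPM, a ratio of 1.80 (1.72 to 1.88). Pthlh, the ligand of Pth1r, had 29 UMIs in KO and 59 in control, none in cartilage-rich cells.

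Markers of other cell types were read in the 31 KO and 14 control cartilage-rich cells left without the barcodes larger elsewhere. Of 10 blood-cell markers, 8 including Ptprc (CD45) were at 0 in KO, and all 10 were at 0 in control. Of 6 tendon markers, Tnmd, Scx, Mkx and Kera were at 0 in both libraries and the other 2 were detected in both. The list summed to 703 CPM in KO and 2346 CPM in control over these cells, with a median of 0 per cell and a highest cell of 30078 and 24792 CPM. The 13 osteoblast markers summed to a median of 2867 CPM per cell in KO (67.2 to 353945) and 9885 CPM in control (308 to 498480), with Dmp1 at 0 in KO and Spp1 at 0 in control. The 4 synovial lining markers had a median of 0 in both, with a highest cell of 23966 CPM in KO and 156452 CPM in control, and Clic5 and Cd55 were at 0. The part of these few cells in the differences was not tested.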

How the data were processed

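Raw UMI counts per gene and barcode were deposited by the authors, from version 3 of the 10x 3′ kit as the labels' protocols state. The submitters' processing notes name Cell Ranger and the builds GRCm38 and mm10, the file headers give 3.1.0 as software version, and the strand rule is not given in the sources used here. Barcodes were kept from 200 genes and up to 10% mitochondrial UMIs. Scrublet scores, at 0.8% doublets per 1000 barcodes, marked 1 KO and 4 control doublets, which were left out. No correction for free RNA was made. Counts were summed per library and scaled to CPM. Ratios carry exact conditional binomial intervals, levels Poisson intervals and shares Clopper-Pearson intervals. A call is a log2 ratio of at least 1 in size, with a pseudocount of 10 CPM, over genes with at least 20 UMIs. Clustering used scanpy 1.11.5 (Leiden, leidenalg 0.10.2) without the members, and clusters were named from marker lists. Scaling with edgeR 4.0.16 (TMM), other filters, pseudocounts and cell sets were tried as alternatives. The scripts were tested on simulated data. Named genes were the 34 members, genes of a 50-gene cartilage list, the 10 other genes with the highest ratio in cartilage-rich cells, and Stat5a and Stat5b; marker genes are named where their values stand beside a result. The members, lists and rules were chosen with earlier results of these data known. Gene positions are those of GENCODE M21 (GRCm38).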

Additional observations from a re-analysis of the deposited data

Results flagged for a closer look

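Both libraries of sorted blood progenitors, which no comparison here uses, held transcripts of Col2a1, Col9a1, Col9a2, Col9a3, Col11a1, Col11a2 and Acan. The 7 genes had 4522 UMIs in the KO progenitor library and 5014 in the control progenitor library. Of these, 91.1% and 94.8% lay on barcodes that hold more UMIs in a stromal library. Such barcodes numbered 276 of 7511 and 382 of 3747.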

How the results depend on the processing

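No alternative reversed a direction. The log2 ratio of Col2a1, 2.25 with all kept cells, was 2.58 without barcodes larger in the other stromal library, 2.58 without those larger in any other library, 2.32 under a stricter filter (500 genes or more per cell, mitochondrial share up to 5%), and 0.72 as a mean of single-cell CPM. As such a mean without barcodes larger in the other stromal library, a setting added after the data were seen, it was 2.23 (2.17 to 2.29). The stricter filter also took the difference in the share of cartilage-rich cells from 2.78 (-0.50 to 6.43) to 6.72 (2.35 to 11.7) percentage points. Without a cell filter it was 1.52 (-1.61 to 4.96), and with cells thinned 2.49 (-1.14 to 6.51). Without barcodes larger in the other stromal library it was 5.78 (2.93 to 9.13). Intervals of these differences are built from Wilson intervals. The median log2 ratio of the members, 1.77, was 1.95 with a pseudocount of 1 CPM and 0.47 as a mean of single-cell CPM, or 1.07 when barcodes larger elsewhere were also left out, a setting added after the data were seen. The mean of single-cell CPM took the members past 2-fold from 25 to 0 over all kept cells. Without the barcodes larger elsewhere that mean gave 18 of 33. The cause of these changes was not tested. The median within cartilage-rich cells stayed between 0.09 and 0.55 over 15 alternatives, and the log2 ratio of the share of UMIs in those cells between 1.87 and 2.67 over 11. No paired analysis was possible because each group is 1 library, and no library could be left out for the same reason. With 6 control cells in the chondrocyte-like cluster, levels within it rest on few cells.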
